A study of Mus musculus with 2 samples.

Results

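Acinar enzyme-high cells were the 111 barcodes, of 1609 that passed the quality filters and 1635 in all, that carried at least 15 UMIs (unique molecular identifiers, each counting 1 captured transcript) of the 4 pancreatic digestive enzyme genes Cpa1, Ctrb1, Pnliprp1 and Clps in sum. They also had to hold fewer than 10 UMIs of Ins1 and Ins2 together, at least 1000 UMIs in total and at most 20% mitochondrial UMIs. The study profiled single cells of wild-type mouse pancreas at embryonic day E14.5, sampled as 2 libraries. Flow sorting on the reporter Ngn3eGFP, gated for low and for high fluorescence, had enriched endocrine cells, so cells of the acinar lineage were not what the sort aimed at. No other allele, agent or treatment is given for either library, both libraries share genotype, stage and sort, and nothing says that they came from separate animals or litters. The p-values below therefore measure class differences against how far they vary between these libraries, a spread that may be technical. Library 1 held 13 of the acinar barcodes among 528 (2.46%, exact 95% interval 1.32 to 4.17%) and library 2 held 98 among 1081 (9.07%, 7.42 to 10.9%). The sort gates can set these shares, and the intervals cover counting error only.

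In the embryonic pancreas the branching epithelium divides into tips and a trunk. Tip cells carry the transcription factor Ptf1a and the carboxypeptidase Cpa1 and give rise to acinar cells, whereas trunk cells carry Sox9 and Spp1 and give rise to ducts and, through Neurog3, to endocrine cells. Acinar cells make digestive enzymes in bulk: the proteins enter the endoplasmic reticulum (ER) through the Sec61 channel, fold there, and are packed into zymogen granules. In mature acinar cells Ptf1a works in a complex with a common E protein and Rbpjl, which binds an E-box and a TC-box spaced close together in the promoters of enzyme genes.

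Promoters of enzyme genes are shown because 13 enzyme-list genes rose against trunk and because the 2 boxes of the Ptf1a complex can be searched for by their letters. Each line gives the 250 bases before the RefSeq transcription start on GRCm38.p6, 5′ to 3′ on the gene's strand. Capitals mark every E-box CACCTG and every TC-box TTTCCC on either strand, so that CAGGTG and GGGAAA are the same boxes on the opposite strand. Cel (bile salt-stimulated lipase), chr2:28563404-28563653, minus strand, had 4 E-boxes and 1 TC-box. Cela1 (elastase 1), chr15:100687921-100688170, minus strand, had 1 of each with 4 bases between them. Cela2a (elastase 2A), chr4:141826006-141826255, minus strand, had 1 of each with 128 bases between them. Cela3b (elastase 3B), chr4:137430521-137430770, minus strand, had 2 E-boxes and no TC-box.
Cel: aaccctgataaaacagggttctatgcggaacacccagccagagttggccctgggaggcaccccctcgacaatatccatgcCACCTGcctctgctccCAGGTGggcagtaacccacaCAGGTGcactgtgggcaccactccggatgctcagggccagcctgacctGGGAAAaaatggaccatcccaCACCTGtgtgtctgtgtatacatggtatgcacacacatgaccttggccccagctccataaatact
Cela1: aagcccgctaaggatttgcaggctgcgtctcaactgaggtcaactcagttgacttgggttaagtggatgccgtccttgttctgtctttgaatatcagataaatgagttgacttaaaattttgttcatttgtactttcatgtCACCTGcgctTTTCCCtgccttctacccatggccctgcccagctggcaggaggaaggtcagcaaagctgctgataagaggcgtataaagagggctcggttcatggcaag
Cela2a: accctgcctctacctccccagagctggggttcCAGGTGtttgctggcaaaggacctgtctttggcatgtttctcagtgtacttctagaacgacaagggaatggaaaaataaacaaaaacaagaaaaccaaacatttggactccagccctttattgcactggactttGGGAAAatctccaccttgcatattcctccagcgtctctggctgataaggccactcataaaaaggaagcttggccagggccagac
Cela3b: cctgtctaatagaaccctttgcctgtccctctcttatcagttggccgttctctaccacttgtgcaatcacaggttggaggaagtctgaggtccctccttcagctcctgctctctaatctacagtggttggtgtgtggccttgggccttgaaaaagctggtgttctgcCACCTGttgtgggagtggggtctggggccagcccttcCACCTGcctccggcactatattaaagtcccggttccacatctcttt
The E-box was present in 17.2% of all 32851 RefSeq promoter windows of this length, the TC-box in 21.9%, both boxes in 3.61% and both within 30 bases of each other in 0.95%. Of 17 genes, the 4 of the rule and the 13 enzyme-list genes that rose against trunk, 12 were found in the promoter table, with 13 windows. Among these windows 6 held the E-box, 5 the TC-box, 3 both, and 2 both within 30 bases, those of Cel and Cela1. The window of Cpa1 held a TC-box and no E-box, that of Ctrb1 likewise, and that of Pnliprp1 neither. A match describes the letters only and does not show binding.

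The rule fixes the level of its 4 genes, which are given as a description with no test. Summed over the acinar barcodes of library 1 and library 2, Cpa1 stood at 4272 and 5624 CPM (UMIs scaled to a total of 1000000, so that classes of different depth compare), Ctrb1 (chymotrypsinogen B1) at 4165 and 7312 CPM, Pnliprp1 (a lipase-related protein) at 3157 and 4894 CPM, and Clps (colipase, the cofactor of pancreatic lipase) at 2203 and 4731 CPM. In the trunk barcodes of the same libraries these genes stood between 19.1 and 91.3 CPM. The enzyme sum of single members ran from 16 to 189 UMIs with a median of 50 in library 1, and from 16 to 538 with a median of 73 in library 2. As a share of a member's UMIs it ran from 0.413 to 3.04% and from 0.519 to 9.22%. Just inside the threshold lay members with 16, 22 and 26 enzyme UMIs in library 1 and with 16, 16 and 19 in library 2. The nearest barcodes outside it held 13, 12 and 11, and 12, 11 and 8. The library 1 member with 16 UMIs had all of them from Clps and none from the other 3 genes. In library 2, 1 member supplied 386 of the 2146 Clps UMIs.

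Trunk barcodes, the main comparison group, had at least 5 UMIs of Spp1 (osteopontin), at most 1 of Neurog3, and enzyme and insulin sums below the acinar limits. There were 88 in library 1 and 177 in library 2. Neurog3-high barcodes (at least 5 Neurog3 UMIs, 96 and 142) and insulin-high barcodes (at least 10 insulin UMIs, 47 and 114) entered the same fit. The estimate of the spread in that fit draws on them too. All 3 classes were limited to enzyme sums under 15 UMIs, which kept 1 library 2 barcode with both enzyme and insulin UMIs out of the insulin-high class. Enzyme UMIs outside the acinar class were few, and the mix of genes differed. Clps made up 47.3 and 50% of the enzyme UMIs in Neurog3-high barcodes against 16.0 and 21.0% in acinar barcodes, and Ctrb1 made up 50 and 55.3% in insulin-high barcodes against 30.2 and 32.4%. The genes of the rule chose these classes and their UMIs cluster within barcodes, so the shares are a description with no test. A library 1 barcode just outside the threshold had all of its 11 enzyme UMIs from Clps.

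Acinar barcodes were deeper than trunk barcodes, with medians of 5050 and 4174 UMIs against 3901.5 and 2748. A threshold on raw UMIs also favours deep barcodes. The 2 libraries shared 3 barcode names, of which 0 were members. Scrublet called 13 and 11 doublets, 0 and 2 of them members. Markers of other cells were counted in the acinar class. Of the members, 1 of 13 and 8 of 98 held any Spp1 UMI, and 2 of 13 and 8 of 98 any Neurog3 UMI. In each library 1 member supplied 10 of the Spp1 UMIs, of 10 and 18. The 16 macrophage markers summed to 202 and 198 CPM, against 196 and 185 in trunk barcodes and 362 and 1006 in all other barcodes. Single markers of that list differed: Csf1r had 0 and 3 UMIs, whereas the macrophage marker C1qa had 5 and 21 UMIs against 1 and 0 in trunk (ratio 43.6, counting interval 7.16 to 1787, adjusted p 6.56e-05). Neural crest and glia markers summed to 148 and 359 CPM against 249 and 273 in trunk, with Sox10, which marks neural crest, at 0 UMIs in both acinar sums and 21 and 17 in trunk, at least 7.56-fold lower. The part of such RNA in the results was not tested. Mesenchyme markers summed to 403 and 242 CPM against 564 and 430 in trunk, and endothelial markers to 228 and 145 CPM against 199 and 180.

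Xist, the RNA that coats the inactive X chromosome of female cells, separated the acinar barcodes from the rest of library 2. It was singled out after its values were seen. In library 2 the members held 521 Xist UMIs (1149 CPM), and 51 of 98 had at least 3. The 983 other barcodes of that library held 105 Xist UMIs (35.8 CPM), and 0 of 983 had at least 3, which allows a share of up to 0.305% when a count of 0 is read as at most 3 (exact 95% upper limit 0.375%). In library 1, 8 of 13 members and 95 of 515 other barcodes had at least 3, at 1343 against 550 CPM. Y-linked genes (Ddx3y, Eif2s3y, Uty and Kdm5d) summed to 220 CPM in the library 2 members and 337 CPM in the other barcodes. A Y-linked UMI was held by 34 of the 51 members with at least 3 Xist UMIs, by 57 of all 98 members and by 550 of the 983 other barcodes. Without the members with 3 or more Xist UMIs, 5 and 47 members with 17212 and 166784 UMIs were left. The calls against trunk given below then fell to 144 higher and 164 lower, with the enzyme list at 6 higher, the trunk list at 15 lower and the ribosomal proteins at 1 higher. Whether the origin of these members bears on the gene differences was not tested.

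**Figure D1:**
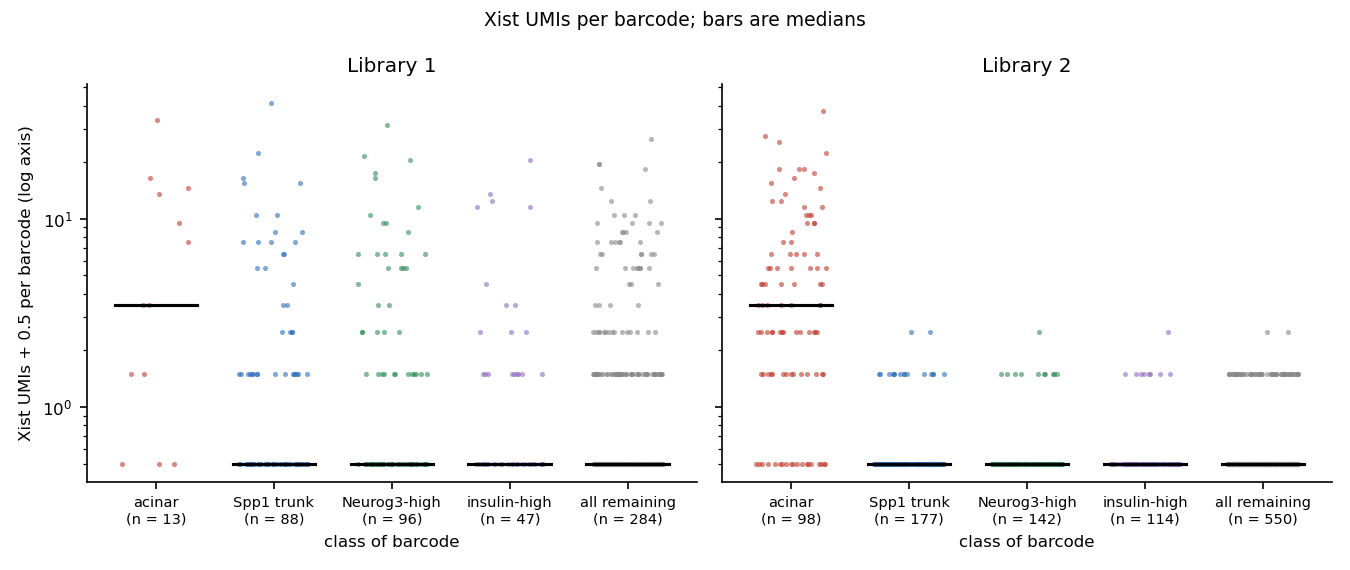
Xist UMIs per barcode (plus 0.5, log axis) by class and library, each point a barcode and each black bar a class median. In library 2 the barcodes with 3 or more Xist UMIs are all acinar, 51 of 98, whereas in library 1 they occur in every class.

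Against trunk barcodes, acinar barcodes differed in 958 of 10445 genes tested (9.17%), of which 545 were higher (5.22%) and 413 lower (3.95%) by edgeR's quasi-likelihood test with Benjamini-Hochberg adjustment at 0.05. Of the 958, 939 moved in 1 direction in both libraries. The second tool, DESeq2, gave 238 higher and 162 lower, and all 400 were among the edgeR calls. The median log2 fold change over all genes tested was -0.03. The same barcodes supplied the enzyme UMIs of the rule and the genes tested, so genes that go with those enzymes in a cell are tied to the choice of members.

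Enzyme and granule-cargo genes outside the rule differed widely. Of 47 listed genes, 44 were in the tables and 14 passed the filter on low counts; 13 of the 14 rose, with a list median log2 fold change of 4.76. Genes that passed the filter through the acinar sums had to be high there, so this median does not describe the whole list. Serpina6, corticosteroid-binding globulin, a secreted serpin, stood at 1088 and 2727 CPM in the acinar sums of library 1 and library 2 and at 16.6 and 40.1 CPM in trunk, a log2 fold change of 6.24 ± 0.25 (SE, adjusted p 3.97e-24). Both acinar sums lay above both trunk sums, although 9 of 13 and 94 of 98 members held a Serpina6 UMI and 5 of 88 and 17 of 177 trunk barcodes did too.

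The other enzymes were lower in level and more uneven between libraries. Amy1 (amylase 1) stood at 148 CPM in library 1 and 736 CPM in library 2, against 24.9 and 21.0 CPM in trunk (log2 fold change 4.57 ± 0.43, adjusted p 3.84e-11). Cela1 stood at 242 and 547 CPM against 13.8 and 13.4 CPM (5.10 ± 0.44, adjusted p 3.57e-12), and Cel at 202 and 388 CPM against 13.8 and 9.55 CPM (4.90 ± 0.45, adjusted p 1.48e-11). Cela2a had 3 and 110 UMIs in the acinar sums and 0 in both trunk sums, at least 63.1-fold higher with 3 counts over the trunk group as the floor. Cela3b had 3 and 98 UMIs against 1 and 2, a ratio of pooled rates of 56.4 (exact 95% counting interval 18.8 to 278). Spink1, the trypsin inhibitor packed with the zymogens, had 11 and 89 UMIs against 4 and 3 (log2 fold change 4.62 ± 0.54, adjusted p 9.17e-09). Smaller rises were found for Erp27 (an ER chaperone of the disulfide isomerase family, 2.46 ± 0.54, adjusted p 0.00109), Amy2a5 (2.33 ± 0.67, adjusted p 0.0182), Sycn (syncollin of the granule membrane, 2.14 ± 0.63, adjusted p 0.0210) and Cpb1 (carboxypeptidase B1, 2 and 14 UMIs against 1 and 2, adjusted p 0.0356). Sycn lost its call without the replicate block (adjusted p 0.0871), and Cpb1 with trunk barcodes of at least 10 Spp1 UMIs (adjusted p 0.0718). Pdia2, the pancreatic disulfide isomerase, had 2 and 13 UMIs against 0 and 0, at least 8.38-fold higher. Pnliprp2 was the tested gene of the list that did not pass, at 13.4 and 59.5 CPM against 33.2 and 49.7 CPM.

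Some enzyme and granule protein genes of the adult gland had few UMIs. Prss1 had 0 and 5 UMIs in the acinar sums, Ctrl 0 and 1, Pnlip (pancreatic lipase) 0 and 3, Pla2g1b 0 and 2, and Zg16 0 and 2. Prss2 had 0 and 21 UMIs. Try5, a trypsin gene, had 0 and 54 UMIs, of which 40 came from 1 member. In all 6 genes of the list had no UMI in either acinar sum. Trypsin, amylase and Reg genes have near-identical copies, between which the counting may split reads, so their levels are uncertain. The gene span of Cela2a overlaps Ctrc and Casp9, and that of Amy1 overlaps Rnpc3. Those of Cel, Sycn, Ptf1a and Rbpjl overlap genes on the other strand. Whether exons overlap was not resolved, which leaves these levels uncertain too.

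**Figure D2:**
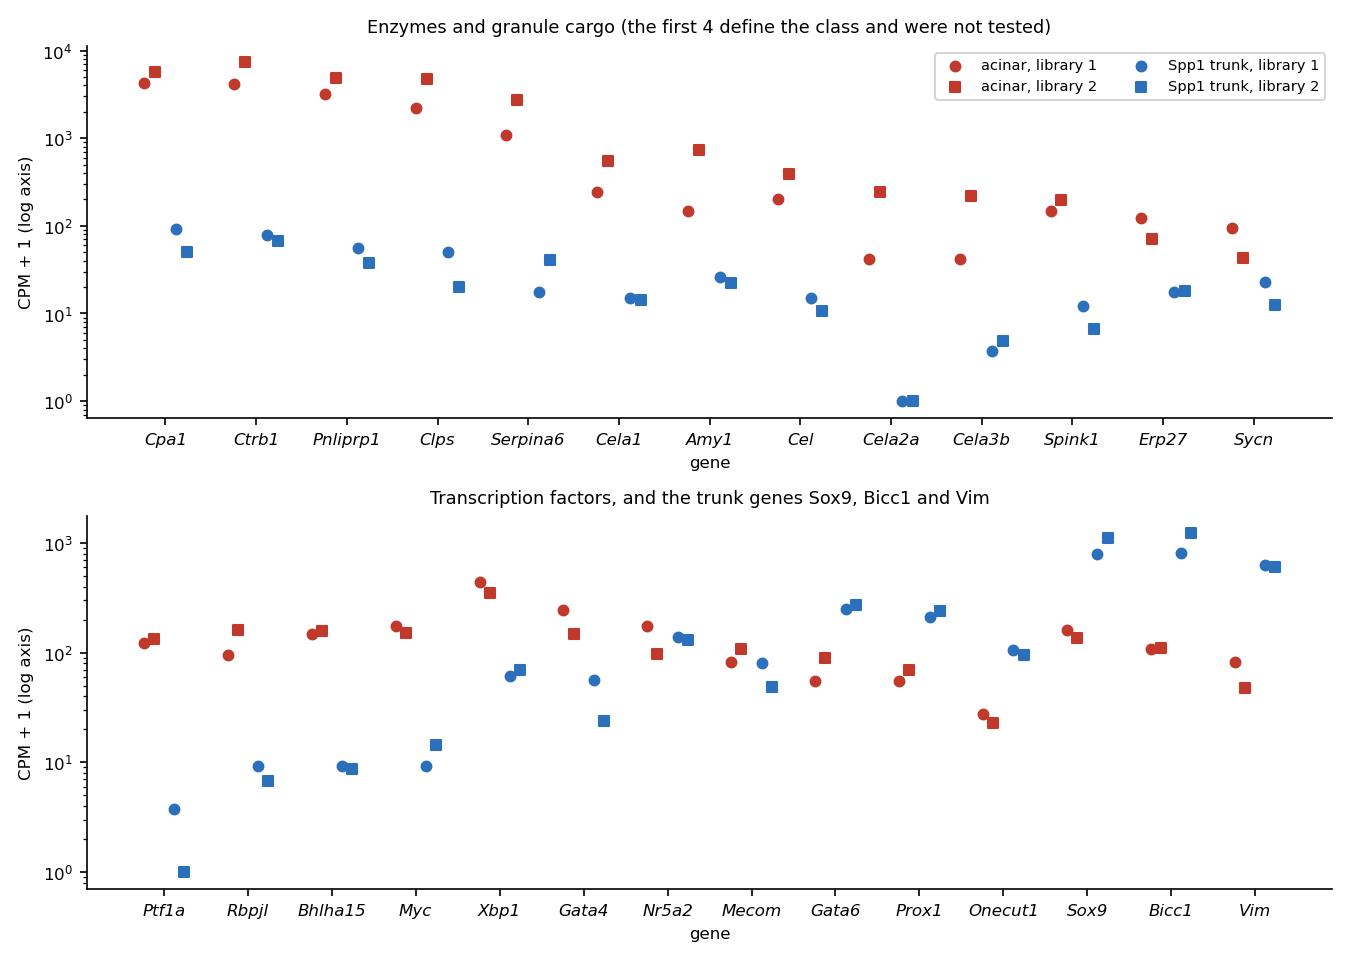
CPM plus 1 (log axis) in the acinar (red) and trunk (blue) sums of library 1 (circles) and library 2 (squares), for enzymes and granule cargo above and for transcription factors with 3 trunk genes below. Enzyme levels fall from Ctrb1 at 7312 CPM to Sycn at 41.9 CPM in library 2, and Ptf1a is separated from its trunk level by more than Nr5a2, whose classes overlap.

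Ptf1a, the acinar factor outside the rule and a check of the label, was found in 9 UMIs of 4 of 13 members (30.8%, exact 95% interval 9.09 to 61.4%) and in 60 UMIs of 32 of 98 members (32.7%, 23.5 to 42.9%). Trunk barcodes held 1 UMI in 88 barcodes and 0 in 177. Neurog3-high barcodes held 5 UMIs in 96 and 3 in 142, and insulin-high barcodes 2 in 47 and 1 in 114. The ratio of pooled rates against trunk was 116 (counting interval 20.1 to 4634), with adjusted p 9.12e-09. Ptf1a lies on chromosome 2 from 19445663 to 19447501, plus strand, GRCm38, and its promoter window held neither box. At these depths most members showed no Ptf1a UMI, so a member without one is not shown to lack the factor.

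Of 25 transcription factors of the acinar and tip list that were tested, 8 rose, 4 fell and 13 did not pass, with a median log2 fold change of -0.08. The factors that rose with Ptf1a were Rbpjl, its partner in mature acinar cells (94.0 and 161 CPM against 8.30 and 5.73, log2 fold change 4.46 ± 0.59, adjusted p 1.69e-07), and Bhlha15 (Mist1, which shapes the secretory apparatus; 148 and 157 CPM against 8.30 and 7.64, 4.32 ± 0.55, adjusted p 7.09e-08). Myc, a driver of growth and ribosome production, rose from 8.30 and 13.4 CPM in trunk to 175 and 150 CPM (3.94 ± 0.51, adjusted p 9.15e-08). Xbp1, the factor of the unfolded protein response, rose from 60.9 and 68.8 to 443 and 353 CPM (2.72 ± 0.30, adjusted p 1.98e-09). Gata4 stood at 242 and 148 CPM against 55.3 and 22.9 CPM (2.50 ± 0.41, adjusted p 1.27e-05).

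Gata6, the close relative of Gata4, went the other way, with 53.7 and 88.2 CPM in acinar and 252 and 269 CPM in trunk barcodes (log2 fold change -1.55 ± 0.31, adjusted p 0.000447). Prox1 fell by 1.61 ± 0.33 (adjusted p 0.000417), the stress-induced receptor Nr4a1 by 1.92 ± 0.39 (adjusted p 0.000446) and Onecut1, a factor of the early multipotent epithelium, by 1.83 ± 0.51 (adjusted p 0.0145) on the log2 scale. DESeq2 did not call Onecut1 (adjusted p 0.187). Foxa3 and Etv5 passed at adjusted p 0.0244 and 0.0469 and lost the call with trunk barcodes of at least 10 Spp1 UMIs (0.0990 and 0.0982). In library 1 alone their log2 ratios, with 5 CPM added to each level, were 0.62 and 0.47. Nr5a2, which activates enzyme genes with Ptf1a, stood at 175 and 97.0 CPM against 138 and 130 CPM (log2 fold change -0.01 ± 0.35, adjusted p 0.996), and Mecom at 80.6 and 108 CPM against 80.2 and 47.7 CPM (0.97 ± 0.41, adjusted p 0.152). The acinar and trunk sums of Nr5a2 overlapped.

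Trunk and duct genes were lower in the acinar barcodes. Of 31 tested, 18 fell and 13 did not pass, with a median log2 fold change of -1.41. Sox9, the factor that maintains trunk progenitors, stood at 161 and 134 CPM against 797 and 1106 CPM (log2 fold change -2.63 ± 0.24, adjusted p 1.64e-11). Bicc1, an RNA-binding protein of duct epithelium, stood at 107 and 110 CPM against 808 and 1222 CPM (-3.07 ± 0.28, adjusted p 9.66e-12). Vim, vimentin, stood at 80.6 and 46.3 CPM against 628 and 602 CPM (-3.34 ± 0.31, adjusted p 1.64e-11). Both acinar sums of these 3 genes lay below both trunk sums, yet Sox9 was still found in 73 acinar UMIs. The Notch target Hes1 passed narrowly (-0.87 ± 0.29, adjusted p 0.0456) and lost the call without the replicate block (adjusted p 0.220). Trunk barcodes were chosen by Spp1, so genes that go with Spp1 are tied to the choice of the comparison group.

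**Figure D3:**
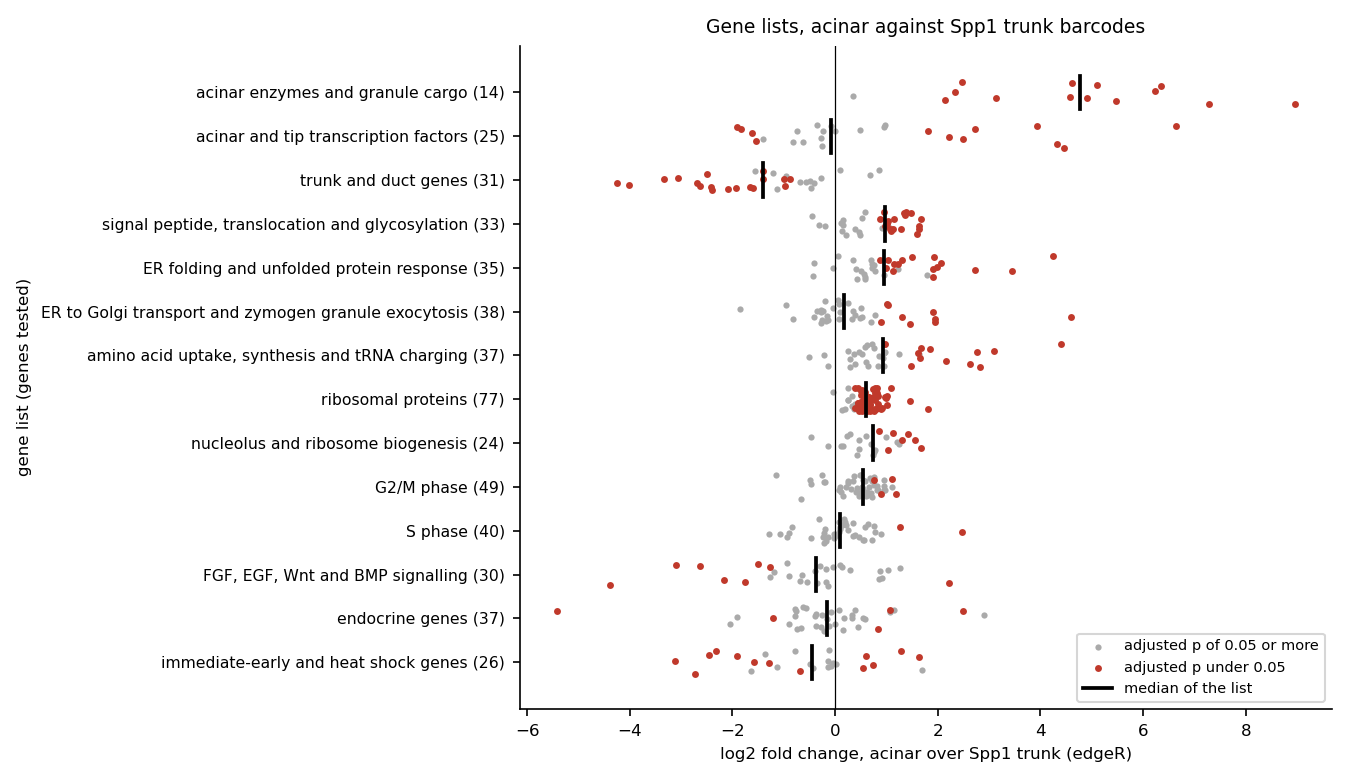
Log2 fold changes of acinar over trunk barcodes for the tested genes of 14 lists, each point a gene, red where the adjusted p was under 0.05, with black bars at list medians. The enzyme list has its median at 4.76, the trunk and duct list at -1.41 and the ribosomal proteins at 0.60.

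Part of the genes of the route into the ER rose against trunk. In the list of signal peptide handling, translocation and glycosylation 18 of 33 tested rose and 15 did not pass (median log2 fold change 0.97). Sec61b and Sec61g, subunits of the translocation channel, stood at 645 and 738 CPM against 293 and 218 CPM (1.63 ± 0.19, adjusted p 1.38e-08) and at 430 and 456 CPM against 177 and 147 CPM (1.63 ± 0.24, adjusted p 1.22e-06). Rpn1, a subunit of the oligosaccharyltransferase, stood at 430 and 549 CPM against 183 and 185 CPM (1.59 ± 0.22, adjusted p 5.38e-07). Of 35 genes of ER folding and the unfolded protein response, 16 rose and 19 did not pass (median 0.94). Sdf2l1, a cofactor of the ER chaperone BiP, rose from 38.7 and 40.1 to 484 and 342 CPM (3.45 ± 0.31, adjusted p 7.64e-12), and Manf, a secreted ER stress protein, from 202 and 180 to 349 and 831 CPM (1.91 ± 0.22, adjusted p 7.18e-09). Insulin-high barcodes stood above acinar barcodes in the summed level of both lists, at 10651 and 11844 against 7456 and 9905 CPM for translocation and at 14703 and 16985 against 8074 and 10641 CPM for ER folding. Against all other barcodes 11 of 33 translocation genes rose and 1 fell, and 20 were higher at an unadjusted p under 0.05, but DESeq2 called 0 of them. Of 38 genes of ER to Golgi transport and granule exocytosis, 9 rose and 29 did not pass (median 0.18). The rises there included the cargo receptors Tmed6 (161 and 99.2 CPM against 8.30 and 3.82, 4.59 ± 0.60, adjusted p 1.17e-07) and Tmed3 (188 and 185 CPM against 74.7 and 40.1, 1.94 ± 0.35, adjusted p 6.24e-05). This transport list summed to 5938 and 6115 CPM in acinar and to 9625 and 9989 CPM in insulin-high barcodes. Against all other barcodes 5 of its genes rose and 3 fell.

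Some transcripts of amino acid handling and protein synthesis were higher, and most of those tested did not pass outside the ribosomal proteins. Of 37 genes of amino acid uptake, synthesis and tRNA charging 12 rose and 25 did not pass (median log2 fold change 0.94), among them Asns, asparagine synthetase (134 and 159 CPM against 5.53 and 9.55, 4.40 ± 0.56, adjusted p 7.03e-08), Phgdh, which starts serine synthesis (470 and 518 CPM against 199 and 130, 1.86 ± 0.26, adjusted p 8.64e-07), and Gamt, which makes creatine (148 and 273 CPM against 44.3 and 32.5, 2.77 ± 0.41, adjusted p 1.85e-06). The summed level of the amino acid list was 3977 and 4621 CPM in acinar and 4304 and 3605 CPM in insulin-high barcodes. Of 33 translation factors 11 rose and 1 fell, with Eif5a at 1720 and 1393 CPM against 470 and 428 CPM in trunk (1.94 ± 0.17, adjusted p 3.15e-12). Of 24 nucleolar genes 7 rose, with Npm1 at 1303 and 1393 CPM against 697 and 688 CPM (1.13 ± 0.16, adjusted p 5.02e-07). Ribosomal protein genes shifted by a small and even amount: 64 of 77 rose, with a median of 0.60, and their summed level was 107099 and 112200 CPM against 73101 and 85445 CPM. That count was 27 by DESeq2 and 30 without the replicate block. Rps2 (1.45 ± 0.18, adjusted p 5.42e-08) and Rpsa (1.00 ± 0.12, adjusted p 4.06e-08) had the lowest adjusted p. In the oxidative phosphorylation list 13 of 75 rose (median 0.53), beside 5.22% of all genes tested, and DESeq2 called 2 of the list higher.

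Against trunk, 5% of the S phase genes and 8.16% of the G2/M genes tested passed, beside 9.17% of all genes tested. In the S phase list 2 of 40 rose, Fen1 (a flap endonuclease of DNA replication, 2.46 ± 0.41, adjusted p 2.17e-05) and Rrm2 (a ribonucleotide reductase subunit, 1.25 ± 0.40, adjusted p 0.0340, and 0.165 by DESeq2). In the G2/M list 4 of 49 rose (median log2 fold change 0.54), 0 of them by DESeq2, and 14 were higher at an unadjusted p under 0.05. They included Hmgb2 (1223 and 1382 CPM against 808 and 930, 0.76 ± 0.17, adjusted p 0.00164, and 0.0923 by DESeq2). After each barcode was thinned to 1000 UMIs, at least 2 G2/M UMIs were found in 84.6% of the library 1 members (exact 95% interval 54.6 to 98.1%) and in 92.9% of the library 2 members (85.8 to 97.1%). The same share was 69.3% (58.6 to 78.7%) and 76.8% (69.9 to 82.8%) in trunk, 56.3% and 57% in Neurog3-high, and 76.6% and 63.2% in insulin-high barcodes. Barcodes of 1 library are not replicates and the intervals cover counting error only, so these shares are a description with no test. Free RNA in droplets also enters such shares, and its part was not tested. Without thinning the shares were 94.9 to 100% in acinar and trunk barcodes of both libraries.

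Of the signalling lists, 7 of 30 genes of FGF, EGF, Wnt and BMP signalling fell and 1 rose (median log2 fold change -0.37). Of all genes tested against trunk, 5.22% rose and 3.95% fell. The receptors Fgfr2, through which mesenchymal FGF10 maintains progenitors, and Fgfr3 fell by 2.62 ± 0.35 (adjusted p 2.59e-07) and 2.17 ± 0.44 (adjusted p 0.000486) on the log2 scale. Wnt7b had 2 and 0 UMIs in acinar and 32 and 62 in trunk barcodes, 28-fold lower by pooled rates (counting interval 7.55 to 235). In the Notch list 1 of 22 rose, the non-canonical ligand Dlk1 (1142 and 961 CPM against 343 and 281, 1.88 ± 0.18, adjusted p 4.40e-11), and 2 fell, Hes1 and the receptor Notch2 (-1.34 ± 0.44, adjusted p 0.0466, and 0.318 by DESeq2). Among junction and adhesion genes 2 of 28 rose, the claudin Cldn10 (363 and 260 CPM against 49.8 and 74.5, 2.35 ± 0.34, adjusted p 8.67e-07) and the laminin receptor subunit Itga6 (645 and 851 CPM against 246 and 199, 1.90 ± 0.24, adjusted p 5.42e-08), and 4 fell. Of 19 imprinted and fetal growth genes 3 rose and 5 fell, with Peg3 at 497 and 421 CPM against 1035 and 1272 CPM (-1.24 ± 0.16, adjusted p 1.17e-07) and Grb10 at 457 and 368 CPM against 1267 and 1220 CPM (-1.48 ± 0.19, adjusted p 8.44e-08).

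Of 26 tested genes in the list of immediate-early genes and chaperones, 5 rose, 8 fell and 13 did not pass. Fos (188 and 194 CPM against 376 and 758, log2 fold change -1.57 ± 0.25, adjusted p 8.35e-06) and Fosb (53.7 and 94.8 CPM against 290 and 556, -2.31 ± 0.30, adjusted p 1.33e-07), both induced by cell dissociation as well as by signalling, fell. The mitochondrial chaperone Hspd1 rose from 166 and 208 to 457 and 584 CPM (1.63 ± 0.24, adjusted p 1.48e-06). Another chaperone gene, Hspa1b, singled out after its values were seen, had 3 acinar against 21 trunk UMIs, a ratio of pooled rates of 0.239 (counting interval 0.0457 to 0.802). Endocrine genes were at similar low levels in both classes, with summed levels of 2673 and 2544 CPM against 2703 and 2721 CPM. Of 37 tested, 3 rose and 2 fell, beside 5.22% and 3.95% of all genes tested. Rbp4, among the rises (1.08 ± 0.30, adjusted p 0.0139), lost its call without the members that held 5 or more UMIs of Spp1, Neurog3, Chgb or macrophage markers (0.07, adjusted p 0.946).

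Genes outside the lists also rose. Arhgdig, an inhibitor of small GTPases, stood at 322 and 459 CPM against 11.1 and 7.64 CPM in trunk (log2 fold change 5.57 ± 0.44, adjusted p 1.97e-13). Dennd4c, an exchange factor for Rab10, stood at 537 and 342 CPM against 5.53 and 17.2 CPM (5.16 ± 0.42, adjusted p 7.64e-13), and Nupr1, a stress-induced chromatin protein, at 202 and 381 CPM against 8.30 and 11.5 CPM (5.03 ± 0.47, adjusted p 2.15e-11). P2rx1, an ATP-gated cation channel, had 10 and 78 UMIs in acinar and 0 in both trunk sums, at least 49.2-fold higher. G6pc, glucose-6-phosphatase of liver, had 10 and 72 UMIs against 1 and 2 (ratio 45.8, counting interval 15.1 to 227), and Ass1, argininosuccinate synthase, 2 and 43 against 0 and 1 (75.4, 12.9 to 3045). Cckar, the cholecystokinin receptor that drives enzyme secretion in the adult, was singled out after its values were seen, at 349 and 459 CPM against 19.4 and 45.8 CPM (3.74 ± 0.35, adjusted p 1.87e-11).

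The largest falls outside the lists included Col2a1 (a fibrillar collagen gene of cartilage, 1 and 0 UMIs against 52 and 71, 73.4-fold lower by pooled rates, counting interval 12.9 to 2922), Ppp1r1b (a phosphatase inhibitor, 0 and 3 against 15 and 116, 26.1-fold, 8.72 to 128) and the neurotrophic factor Gdnf (1 and 2 against 29 and 72, 20.1-fold, 6.68 to 99.0). Adamts16, a secreted metalloprotease, stood at 13.4 and 8.82 CPM against 235 and 218 CPM (log2 fold change -4.32 ± 0.53, adjusted p 4.06e-08). In CPM, both acinar sums of each of these 4 genes lay below both trunk sums.

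By Pearson's r of log2(CPM + 1) over the 8 sums of class and library, the genes most like Ptf1a among 4228 with at least 50 CPM in the acinar sums were Tmed6 (0.96), Oaz1 (0.96), Slc25a39 (0.95), Celrr (0.95), Sdhb (0.95), Cpa4 (0.94), Fbln2 (0.93) and Clps (0.93), the last being a gene of the rule. The 8 points share 2 libraries and differ in depth, so the values are a description. Oaz1, which regulates polyamine synthesis, differed far less in level than Tmed6, at 685 and 716 CPM in acinar and 466 to 586 CPM in the other 3 classes.

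Against all 1498 other passing barcodes, which held 265 trunk, 238 Neurog3-high and 161 insulin-high barcodes and others of no class, 1365 of 14824 genes passed (9.21%), 808 higher (5.45%) and 557 lower (3.76%). This fit had 1 residual degree of freedom, and DESeq2 called 129 higher and 105 lower, so its counts are less firm than those against trunk. Both comparisons share the acinar sums. Endocrine genes fell in 34 of 37 (median log2 fold change -3.25), with the granin Chgb at 26.9 and 41.9 CPM against 1312 and 1228 CPM (-4.79 ± 0.29, adjusted p 2.22e-57), Pyy, peptide YY, at 94.0 and 117 CPM against 1419 and 1980 CPM (-3.83 ± 0.24, adjusted p 1.89e-53) and Iapp, amylin, at 0 and 13.2 CPM against 510 and 1110 CPM (-6.28 ± 0.40, adjusted p 2.05e-51). Here the cell-cycle lists were higher: 23 of 52 G2/M genes rose (median 1.11) and 10 of 41 S phase genes (median 0.74), counts that were 2 and 2 by DESeq2. Hmgb2 stood at 1223 and 1382 CPM against 412 and 443 CPM (1.78 ± 0.19, adjusted p 5.33e-18).

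Nr5a2 and Mecom passed in this comparison (1.48 ± 0.40, adjusted p 0.00467, and 1.66 ± 0.44, adjusted p 0.00333) but lost the call by DESeq2 (0.342 and 0.416). Enzyme-list genes rose in 17 of 18, among them genes too sparse to test against trunk: Reg1 (1 and 37 UMIs against 6 and 2, 5.36 ± 0.65, adjusted p 1.89e-14), Rnase1, pancreatic ribonuclease (1 and 43 against 8 and 8, 4.51 ± 0.64, adjusted p 1.51e-10), and the serpin Serpini2 (1 and 45 against 5 and 19, 3.92 ± 0.63, adjusted p 3.03e-08). Nearly all acinar UMIs of these 3 genes came from library 2. With so few UMIs in the other barcodes, the 3 genes passed the filter on low counts through the acinar sums. Genes that passed in that way had to be high there. Their rises and the count of 17 of 18 are therefore tied to the filter and do not describe the whole list. Gstm1, a glutathione transferase, stood at 524 and 1391 CPM against 33.6 and 37.5 CPM (4.89 ± 0.26, adjusted p 4.28e-74), and Znrf3, a ubiquitin ligase that dampens Wnt signalling, at 336 and 492 CPM against 20.9 and 13.3 CPM (4.88 ± 0.33, adjusted p 2.75e-45).

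Members differed among themselves in how much enzyme they carried. The 98 members of library 2 were split into 3 ranges of the enzyme sum after thinning to 1000 UMIs, 1 to 14 (32 members), 15 to 24 (33) and 25 to 80 (33). The members of 1 library are not replicates, so no test applies. Enzymes outside the rule were higher in the upper ranges by unequal amounts. Cela2a went from 4 to 26 to 80 UMIs (28.6, 175 and 484 CPM), Spink1 from 6 to 22 to 61 UMIs (42.9, 148 and 369 CPM) and Cela3b from 13 to 29 to 56 UMIs (92.9, 196 and 338 CPM). Amy1 went from 479 to 593 to 1082 CPM, Cela1 from 393 to 486 to 731 CPM and Serpina6 from 2302 to 2461 to 3324 CPM. The UMIs of Cela2a came from 31 members, the highest with 17, so the steep rise did not come from 1 barcode.

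Transcription factors differed in their order across the ranges. Bhlha15 stood at 122, 155 and 187 CPM (17, 23 and 31 UMIs), higher in each upper range as the enzymes were. Ptf1a stood at 172, 80.9 and 145 CPM (24, 12 and 24 UMIs) across the ranges, Xbp1 at 343, 378 and 338 CPM, and the summed factor list at 2552, 2185 and 2272 CPM. Secretory-route genes were higher in the top range: translocation genes summed to 8729, 9677 and 11103 CPM and ER folding genes to 9630, 9569 and 12456 CPM. Growth-related genes were lower there, with S phase genes at 4382, 3695 and 3197 CPM, G2/M genes at 8500, 8335 and 6243 CPM, and nucleolar genes at 5369, 4640 and 3723 CPM. Ribosomal proteins stood at 116015, 109003 and 111841 CPM. Across the 98 thinned members, Spearman's rank correlation was 0.41 between Cpa1 and Ctrb1, 0.38 between Ctrb1 and Pnliprp1, 0.13 between Cpa1 and Pnliprp1, 0.01 between the enzyme sum and Ptf1a, and 0.07 between the enzyme sum and total UMIs before thinning. All these members share 1 library, and sparse counts weaken such values.

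**Figure D4:**
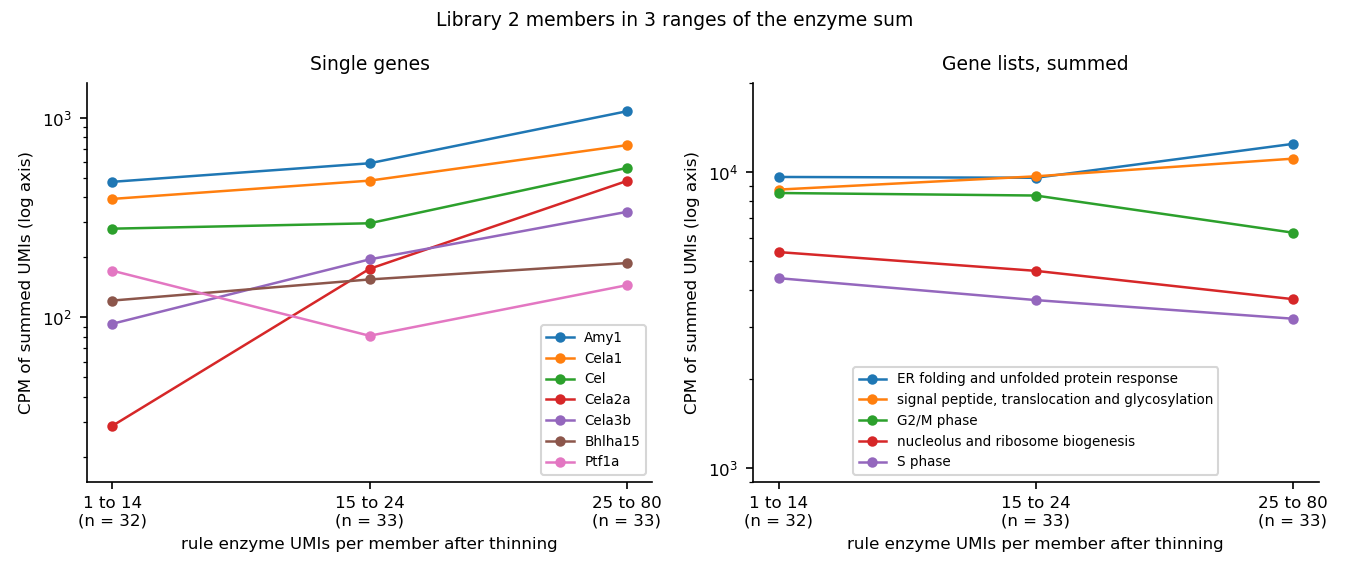
CPM (log axis) of summed UMIs in the 3 ranges of the thinned enzyme sum among the 98 library 2 members, for single genes on the left and summed lists on the right. Cela2a climbs from 28.6 to 484 CPM while Ptf1a does not climb, and the G2/M, S phase and nucleolar lists are lowest in the top range.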

How the data were processed

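The deposited data are tables of raw UMI counts per gene and barcode, 1 for each of 2 libraries, with 25507 gene symbols, which the authors made on GRCm38, per the submitters' processing notes. The aligner, counter, annotation and strand setting were not given in the sources used here. Sorted cells were captured in inDrop droplets and their RNA amplified linearly as CEL-Seq does, per the labels' protocols. The tables hold 1910588 and 3425983 UMIs, and 0 deposited columns were left out.

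Barcodes were classed by the raw UMI limits given in the report. UMIs were summed per library and class, and the 8 sums of 4 classes (528062 acinar and 885134 trunk UMIs) were fitted with edgeR version 4.0.16 under R 4.3.3, using its quasi-likelihood test, TMM factors, its default filter on low counts and library as a block, which left 3 residual degrees of freedom. The comparison with all other barcodes was fitted alone on 4 sums. The genes of the class rules and mitochondrial genes stayed in the library sizes and were not tested. Benjamini-Hochberg adjustment ran over all genes tested, with 0.05 as the limit. Each SE was the size of the log2 fold change divided by the root of F. Levels are plain CPM. DESeq2 1.42.0 was the second tool, and an adjusted p that it gave as missing stayed missing. The block rests on both classes of a comparison coming from the same library.

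Doublets were called with Scrublet in scanpy 1.11.5 and kept, except in 1 alternative. Intervals on shares are exact binomial, and count ratios use the exact conditional interval. All intervals cover counting error only. Thinning drew 1000 UMIs per barcode without replacement. Positions are from GENCODE M21, which held 24334 of the 25507 symbols (95.4%). Both fits were also run on simulated counts with the same dispersion for every gene and no library effect. That run does not show how the fits do on these data.

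The members, the lists and the tests were chosen with earlier results of these data known. Named genes were all detected members of the enzyme and factor lists, the 3 lowest adjusted p of each other list, the 10 largest rises and falls outside the lists with at least 50 CPM, and the 8 genes most like Ptf1a. Not all of these are given, and some items are not reported here. Genes marked as singled out were not chosen by this rule.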

Additional observations from a re-analysis of the deposited data

How the results depend on the processing

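Leaving out the members with 3 or more Xist UMIs, chosen after seeing the data, gave 144 higher and 164 lower against trunk, and 58 and 31 against all other barcodes, with fewer members summed. Of the named genes with an adjusted p under this setting, 57 kept their call or its absence against trunk and 29 lost it, and Rbp4 reversed (log2 fold change -0.38, adjusted p 0.874). DESeq2 gave 238 and 162 against trunk and 129 and 105 against all other barcodes. In the latter comparison, counts also moved with no filter on low counts (403 higher), with an enzyme sum of at least 50 (368 higher, 303 lower) and of at least 1% of UMIs (233 and 195). No replicate block gave 444 and 333 against trunk and 945 and 654 against all other barcodes. All other settings stayed within 1.5 times the main counts. A single library leaves no residual degrees of freedom, so the counts were not recomputed without a replicate, and named genes have library folds only. The library 2 share of acinar barcodes fell to 6.01% with an enzyme sum of at least 50. G2/M shares in the order acinar, trunk, Neurog3-high and insulin-high were, with at least 1 UMI, 100, 90.9, 83.3 and 85.1% in library 1 and 96.9, 88.7, 86.6 and 87.7% in library 2. With at least 3 UMIs they were 76.9, 52.3, 34.4 and 40.4%, and 84.7, 66.1, 26.8 and 41.2%. Without thinning they were 100, 96.6, 96.9 and 97.9%, and 100, 94.9, 93.0 and 96.5%. The causes of these shifts were not tested. Depth limits single genes: 13 members in library 1 held 74436 UMIs, so a gene at 13.4 CPM there is 1 UMI.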

Other observations

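Slc25a39 (296 and 278 CPM in acinar against 134 to 232 CPM in the other 3 classes), Sdhb (107 and 112 CPM against 47.7 to 72.6 CPM) and Fbln2 (228 and 223 CPM against 22.9 to 43.6 CPM) were named by their likeness to Ptf1a. Of these, Fbln2, an extracellular matrix protein, stood furthest from the other classes. Mest, an imprinted gene outside the naming rule and singled out after its values were seen, stood at 349 and 342 CPM against 83.0 and 47.7 CPM in trunk (log2 fold change 2.57 ± 0.34, adjusted p 1.68e-07). Ghrl, the gene of the hormone ghrelin and likewise singled out, had 0 and 67 UMIs in the acinar sums against 6 and 13 in trunk, all of its acinar UMIs in library 2, and DESeq2 did not call it (adjusted p 0.727).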
